A study of Mus musculus with 18 samples.

Results

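Chaperones hold, fold and refold other proteins, and a B cell that is driven to grow and divide has a larger flow of newly made protein to fold. The 43 mouse genes described here encode the chaperones of the cytosol and of mitochondria together with the proteins that steer them. They were taken as a list of symbols, matched to the 28096 genes counted in each library, and no measured value entered the matching, although the list was drawn up with earlier results of these data known. All 43 were found and all 43 passed the filter on low counts, which left 14161 genes in the tests.

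HSP70 proteins bind short exposed stretches of unfolded chains and release them in a cycle driven by ATP. J proteins deliver the clients and start the cycle, and nucleotide exchange factors such as HSP110 and the BAG proteins release the ADP that ends it. HSP90 receives clients from HSP70 through adaptors and completes the folding of kinases and receptors. The CCT ring encloses actin, tubulin and other proteins handed over by prefoldin, and in mitochondria the HSP60 barrel with its HSP10 lid does the same for imported proteins. The heat shock factors are the transcription factors that switch on many of these genes when unfolded protein accumulates.

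RNASeq was performed on splenic B cells from C57BL/6 N mice of at least 8 weeks, either WT or Ubqln1-/-, a germline deletion made by removing exon 2 of Ubqln1 in ES cells with transient Cre. Cells of each genotype were left unstimulated (resting), were given F(ab)2 anti-IgM at 10 μg/mL, which crosslinks the BCR, or received LPS at 20 μg/mL, the bacterial ligand of TLR4, for 4 hr. Each of the 6 groups had 3 libraries, each from wells pooled before RNA purification. The study describes RNASeq replicates as independent experiments and compares some of their values by paired tests. The labels do not tie a library to a mouse or to an experiment, so p-values measure the spread between these libraries. The comparisons ask how chaperone mRNAs respond to each stimulus and whether the levels or the responses differ without Ubqln1, an adaptor that carries ubiquitinated and misplaced membrane proteins to the proteasome.

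Total counts ran from 15368941 to 41072854 per library, with a median of 23257531, and every WT LPS library was deeper than every Ubqln1-/- LPS library. Levels are given as RPKM, reads per kilobase of gene width, scaled to the TMM-adjusted library size, so that genes of different length can be set side by side. Ubqln1 itself was counted at 62.3 to 92.02 RPKM in the 9 WT libraries and at 24.8 to 34.8 RPKM in the 9 Ubqln1-/- libraries, where the exons outside the deletion are still counted. Of the B cell markers, Cd79b, a chain of the BCR, lay at 1726 to 1966 RPKM in resting, 600.4 to 761 RPKM in anti-IgM and 975 to 1345 RPKM in LPS libraries, and Ms4a1, which encodes CD20, at 345 to 478, 147 to 198 and 304 to 448 RPKM. Summed T cell markers reached at most 1.21 CPM (library-scaled counts), with 0 to 3 counts of Cd3e. Myeloid markers were at 10.01 to 12.6 CPM at rest, 5.46 to 10.4 CPM after anti-IgM and 3.26 to 6.59 CPM after LPS, and plasma cell markers at 146 to 465 CPM in WT and 97.99 to 214 CPM in Ubqln1-/- cells. The part that these shifts play in the results was not tested.

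Both stimuli raised most chaperone genes in WT cells. After anti-IgM, 32 of the 43 members rose and 2 fell at an adjusted p under 0.05 (edgeR quasi-likelihood test, Benjamini-Hochberg over all genes tested), where 32.4% of all genes tested rose and 32.2% fell. The median log2 fold change over the members was 0.78, against -0.01 over all genes tested. After LPS, 32 members rose and 3 fell, against 31.2% and 30.1% of all genes, with a median of 0.745. Increases of over 2-fold (log2 above 1) were called for 12 members after anti-IgM and for 8 after LPS, where 9.49% and 7.84% of all genes passed that rule. Without LPS replicate 3 the LPS count was 13. In each of the 32 genes that rose, every anti-IgM and every LPS library of WT cells lay above every resting library. How often libraries separate in this way among all genes tested was not counted, here or in later comparisons.

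Summed over the 43 members, the chaperone mRNA level was 3379 ± 297 RPKM in resting WT cells (SD, n = 3), 6255 ± 324 RPKM after anti-IgM and 5700 ± 503 RPKM after LPS. The resting libraries read 3063, 3653 and 3423 RPKM, the anti-IgM libraries 5885, 6491 and 6389 RPKM and the LPS libraries 5561, 6258 and 5280 RPKM, so that stimulated and resting libraries did not overlap. The members took 0.748% of all counts at rest, 1.39% after anti-IgM and 1.22% after LPS (means of 3 libraries each). A large part of the level came from few genes: Hsp90ab1 alone stood at 1645 ± 83.8 RPKM after anti-IgM, and the 8 CCT genes together at 2170 ± 157 RPKM. Some members share much sequence with other genes, such as Hspa8 (68.8% of the 50-base windows of its transcripts) and Hsp90aa1 (50.1%). How reads from such stretches were assigned is not given in the sources used here. The sums, the shares and which genes make up most of them are therefore uncertain. In bulk RNA, more mRNA per cell and a change in which cells are present cannot be told apart.

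**Figure D1:**
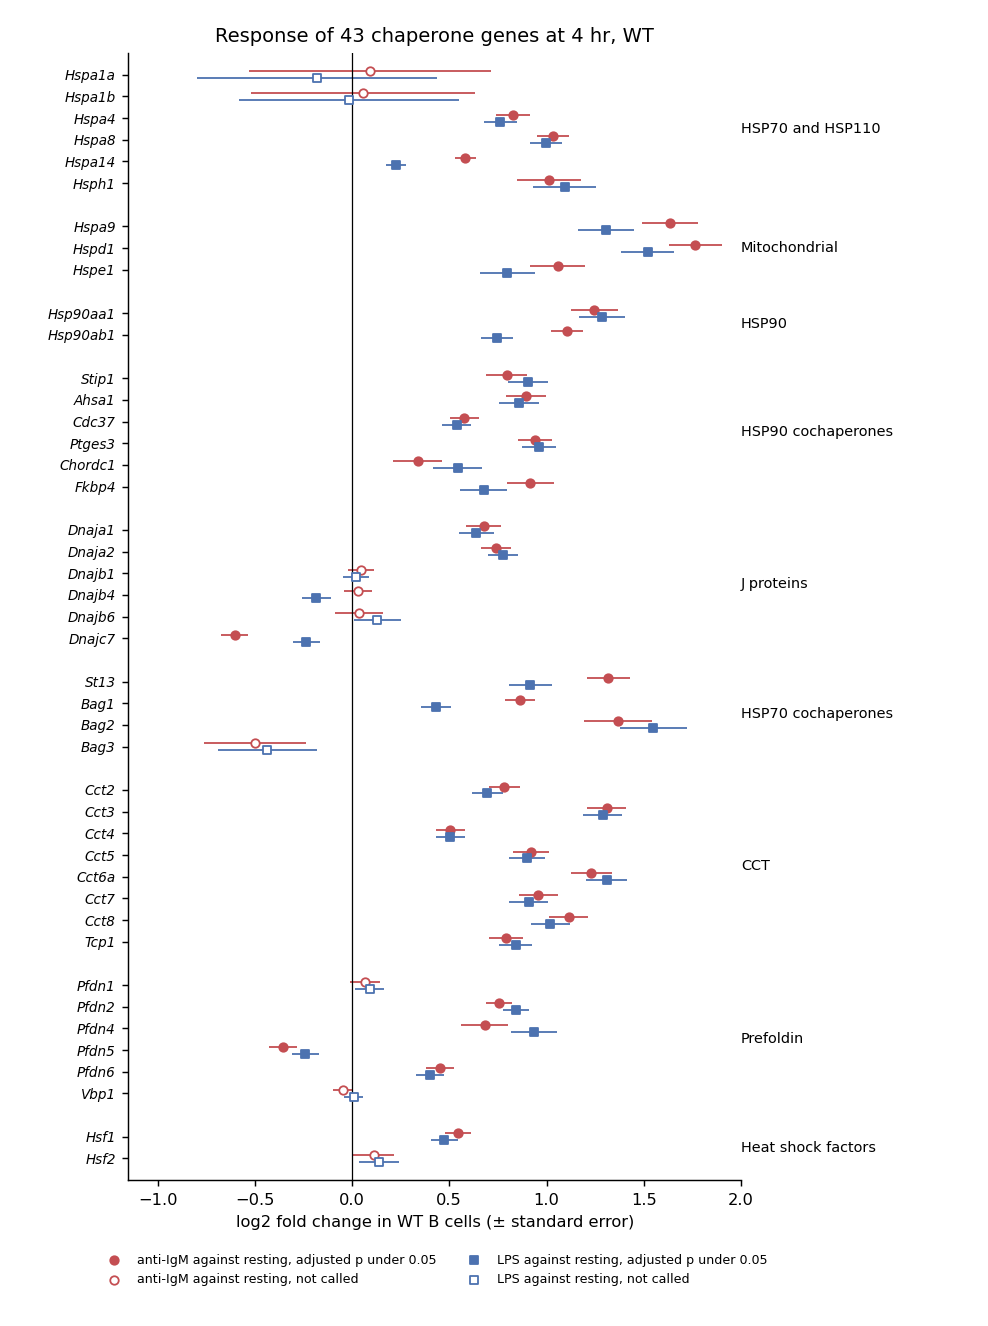
Log2 fold changes (± standard error, edgeR) of the 43 genes in WT B cells after 4 hr of anti-IgM (red circles) or LPS (blue squares) against resting cells, grouped by role, with filled symbols for an adjusted p under 0.05. Most genes lie to the right of 0 under both stimuli, with Hspd1 at 1.76 and 1.52, while Hspa1a and Hspa1b have the widest errors and include 0.

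**Figure D2:**
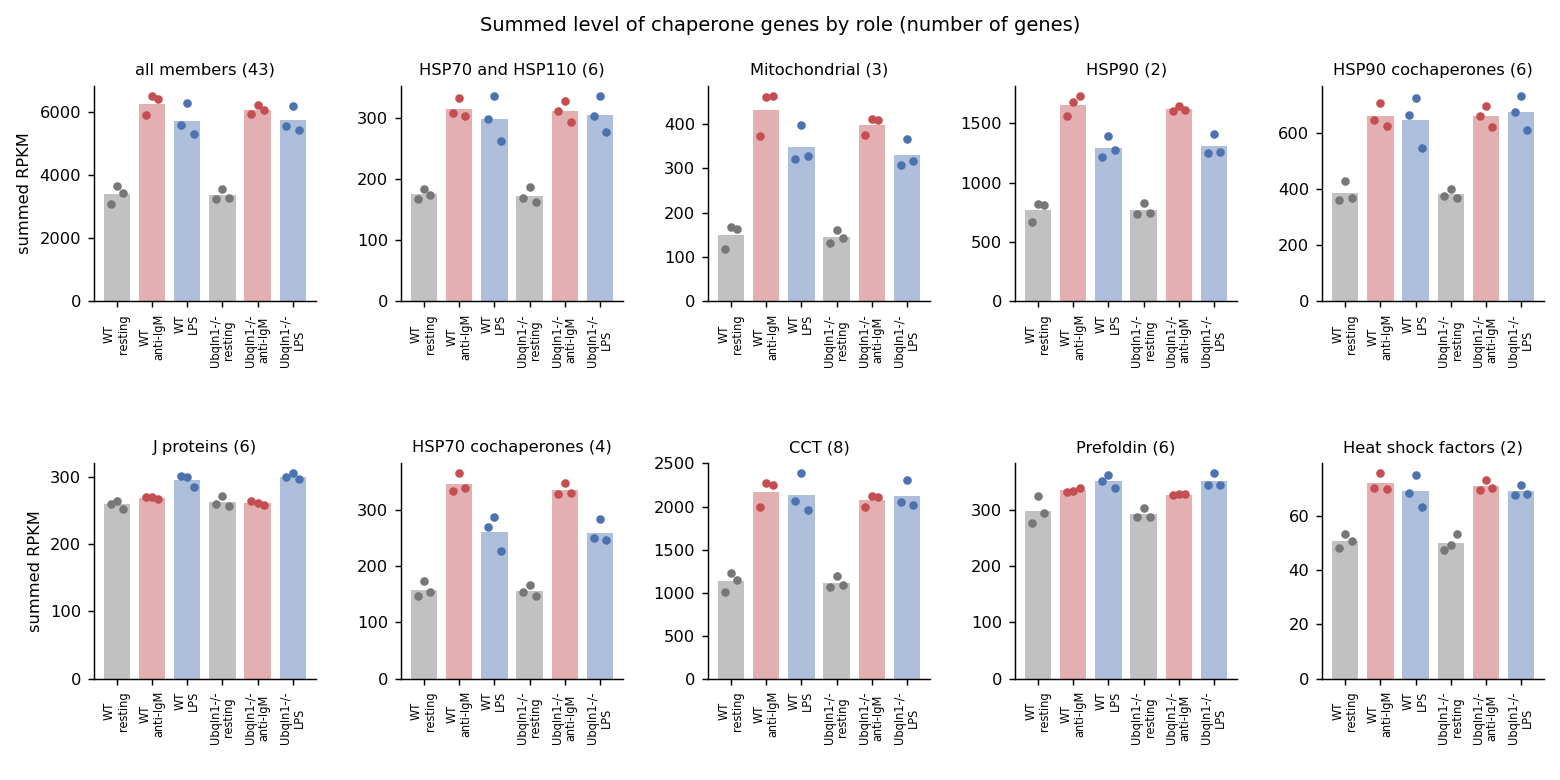
RPKM summed over all 43 genes and over each role group (number of genes in parentheses) for the 6 groups, where bars are means of 3 libraries and points are single libraries, replicates 1 to 3 from left to right. The mean sum over all members goes from 3379 to 6255 and 5700 RPKM in WT cells, and from 3348 to 6063 and 5721 RPKM in Ubqln1-/- cells.

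The 3 mitochondrial members, Hspa9, Hspd1 and Hspe1, had the highest median log2 response of the 9 role groups. It was 1.635 after anti-IgM and 1.31 after LPS, with 3 of 3 genes called in both. Among mitochondrial chaperones and cofactors outside the members, some changed less in mean RPKM of WT cells after anti-IgM. Trap1 went from 54.4 to 96.16, Dnaja3 from 23.85 to 39.9 and Grpel1 from 15.79 to 26.28 RPKM. Clpb went from 4.86 to 7.83, Grpel2 from 9.64 to 10.98 and Hscb from 19.69 to 18.36 RPKM. Hspd1, which encodes HSP60, measured 9.65, 13.8 and 11.9 RPKM in the resting WT libraries, 36.3, 43.6 and 41.1 RPKM after anti-IgM and 33.2, 40.2 and 28.7 RPKM after LPS. The stimulated libraries were all well above the resting ones, with log2 fold changes of 1.76 (SE 0.136, adjusted p = 1.17e-08) and 1.52 (SE 0.135, adjusted p = 9.77e-08). Its partner Hspe1, the HSP10 lid, went from 29.5, 45.2 and 36.9 RPKM at rest to 76.05, 84.04 and 73.5 RPKM after anti-IgM and 64.3, 74.9 and 55.9 RPKM after LPS. It rose by 1.06 (SE 0.141, adjusted p = 5.03e-06) and 0.80 (SE 0.140, adjusted p = 0.000113) on the log2 scale. The ratio of Hspd1 to Hspe1 RPKM was 0.319 ± 0.0116 at rest, 0.518 ± 0.0407 after anti-IgM and 0.522 ± 0.0125 after LPS (SD, n = 3), with no overlap of stimulated and resting libraries. Hspa9 encodes mortalin, the HSP70 of the mitochondrial matrix that pulls in precursors, and stood at 78.3, 109 and 115 RPKM at rest, 259.5, 333 and 348 RPKM after anti-IgM and 223, 282 and 244 RPKM after LPS. Its log2 fold changes were 1.64 (SE 0.143, adjusted p = 4.22e-08) and 1.31 (SE 0.142, adjusted p = 7.54e-07). Of the 50-base windows along their transcripts, 42.1% for Hspd1 and 44.8% for Hspe1 also occur in transcripts of other genes, and how reads from such stretches were assigned is not given in the sources used here, so these levels and their ratio are uncertain.

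Most HSP90 reads were assigned to the constitutive form. Hsp90ab1 read 667, 818 and 809.7 RPKM in resting WT libraries, 1553, 1665 and 1717 RPKM after anti-IgM and 1207, 1376 and 1262 RPKM after LPS. The 9 libraries kept the order resting, LPS, anti-IgM without overlap, and the log2 fold changes over resting were 1.10 (SE 0.0822, adjusted p = 7.72e-09) and 0.74 (SE 0.0817, adjusted p = 8.42e-07). Hsp90aa1, the stress-inducible form, was far less abundant, at 4.64, 5.88 and 5.78 RPKM at rest, 11.3, 14.2 and 13.4 RPKM after anti-IgM and 12.8, 14.8 and 12.4 RPKM after LPS. It rose by 1.25 (SE 0.120, adjusted p = 1.3e-07) and 1.29 (SE 0.120, adjusted p = 1.57e-07). For Hsp90aa1, 50.1% of the transcript windows are shared with other genes, so its level is uncertain too.

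All 6 HSP90 cochaperones rose under both stimuli. After anti-IgM the largest log2 fold changes among them were those of Ptges3 (p23, which holds HSP90 closed on its client) at 0.94, Fkbp4 (a peptidyl-prolyl isomerase of steroid receptor complexes) at 0.92 and Ahsa1 (which speeds the HSP90 ATPase) at 0.89. For Ptges3, 21.7% of transcript windows are shared with other genes. Stip1, the HOP adaptor that joins HSP70 to HSP90, rose from 68.4 ± 6.33 to 119 ± 8.85 RPKM after anti-IgM and to 128 ± 17.5 RPKM after LPS (SD, n = 3). Cdc37, which loads kinases, rose by 0.58 (SE 0.0747, adjusted p = 3.63e-06) after anti-IgM and 0.54 (SE 0.0746, adjusted p = 1.03e-05) after LPS. Chordc1 rose least, from 36.4, 37.02 and 32.4 RPKM to 45.6, 49.3 and 38.7 RPKM after anti-IgM, by 0.34 (SE 0.128, adjusted p = 0.0289). That call was lost without resting replicate 3 (adjusted p = 0.0983), without anti-IgM replicate 1 (adjusted p = 0.0626) and without anti-IgM replicate 2 (adjusted p = 0.12). After LPS Chordc1 rose by 0.54 (SE 0.127, adjusted p = 0.00147), and no single library ended that call.

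Among the cytosolic HSP70 and HSP110 genes, 4 of 6 rose under each stimulus. Hspa8, the constitutive HSC70, read 27.8, 29.9 and 26.9 RPKM at rest, 58.4, 58.9 and 56.1 RPKM after anti-IgM and 56.7, 62.6 and 49.7 RPKM after LPS. Stimulated and resting libraries did not overlap, and the log2 fold changes were 1.03 (SE 0.0827, adjusted p = 1.65e-08) and 1.00 (SE 0.0824, adjusted p = 4.66e-08). For Hspa8, 68.8% of transcript windows are shared with other genes, mostly Gm15459, so its level is uncertain. Hsph1, an HSP110 exchange factor, read 33.3, 36.9 and 32.1 RPKM at rest, 72.4, 76.01 and 57.99 RPKM after anti-IgM and 77.6, 84.98 and 55.7 RPKM after LPS. Replicate 3 was the lowest in each group, yet the stimulated libraries were all above the resting ones, with log2 fold changes of 1.01 (SE 0.164, adjusted p = 4.16e-05) and 1.09 (SE 0.164, adjusted p = 2.39e-05). Hspa4, another HSP110 protein, rose by 0.83 (SE 0.0870, adjusted p = 3.46e-07) and 0.76 (SE 0.0869, adjusted p = 1.26e-06). Hspa14, an HSP70 relative found at the ribosome, rose by 0.58 (SE 0.0531, adjusted p = 6.74e-08) after anti-IgM and by 0.23 (SE 0.0529, adjusted p = 0.00141) after LPS. The LPS call of Hspa14 was lost without the 6 replicate 1 libraries in WT (adjusted p = 0.0514) and in Ubqln1-/- cells (adjusted p = 0.0718).

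The classical heat-inducible HSP70 genes, Hspa1a and Hspa1b, were not called under either stimulus. They lie close together on mouse chromosome 17 (GRCm38.p6, RefSeq) at chr17:34969359-34972156 and chr17:34956429-34959238 and encode nearly the same protein. Since 58.8% of the transcript windows of Hspa1a occur in Hspa1b and 62.3% of those of Hspa1b in Hspa1a, reads cannot be divided between them with confidence. Hspa1a read 0.685, 2.37 and 2.21 RPKM in resting WT libraries, 0.556, 2.76 and 2.44 RPKM after anti-IgM and 0.427, 2.30 and 2.00 RPKM after LPS. In every group replicate 1 was the lowest, and stimulated and resting groups overlapped. The log2 difference from resting was 0.092 (SE 0.624, adjusted p = 0.907) after anti-IgM and -0.18 (SE 0.618, adjusted p = 0.816) after LPS. Hspa1b read 0.660, 2.08 and 2.00 RPKM at rest, 0.511, 2.41 and 2.14 RPKM after anti-IgM and 0.713, 2.04 and 2.04 RPKM after LPS. Its log2 differences were 0.057 (SE 0.575, adjusted p = 0.938) and -0.016 (SE 0.565, adjusted p = 0.984). In Ubqln1-/- cells the differences of Hspa1a were 0.46 (SE 0.657, adjusted p = 0.554) and 0.14 (SE 0.684, adjusted p = 0.87), and those of Hspa1b 0.14 (SE 0.596, adjusted p = 0.847) and -0.064 (SE 0.617, adjusted p = 0.936). Without the replicate 1 libraries, a choice made after these values were seen, the WT differences of Hspa1a were 0.18 (SE 0.194, adjusted p = 0.463) and -0.10 (SE 0.192, adjusted p = 0.685). In that subset Hspa1a was called higher after anti-IgM in Ubqln1-/- cells, at 0.54 (SE 0.209, adjusted p = 0.0449).

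Of the other genes known from the acute stress response, Dnajb1 and Bag3 were not called either. Stress genes did not stay level as a class, since Hsp90aa1, the stress-inducible HSP90, and Hsph1 rose under both stimuli. Dnajb1, the HSP40 that works with heat-inducible HSP70, measured 37.1, 38.3 and 33.9 RPKM at rest, 39.8, 37.4 and 35.7 RPKM after anti-IgM and 38.2, 38.5 and 34.1 RPKM after LPS. Bag3, which links HSP70 to selective autophagy, measured 1.16, 1.65 and 1.44 RPKM at rest, 0.676, 1.12 and 1.25 RPKM after anti-IgM and 0.710, 1.14 and 1.32 RPKM after LPS. In both genes stimulated and resting libraries overlapped. Dnajb6, which keeps aggregating proteins soluble, lay at 1.84 to 2.91 RPKM over the 18 libraries and was not called. Of its transcript windows, 26.6% are shared with other genes. Hsf1, the main heat shock factor, read 42.2, 47.6 and 45.5 RPKM at rest, 64.3, 69.04 and 64.2 RPKM after anti-IgM and 62.1, 68.3 and 57.8 RPKM after LPS. Its stimulated libraries were above the resting ones, with log2 fold changes of 0.54 (SE 0.0677, adjusted p = 2.29e-06) and 0.48 (SE 0.0675, adjusted p = 1.33e-05) in WT cells and 0.55 (SE 0.0675, adjusted p = 2.1e-06) and 0.51 (SE 0.0678, adjusted p = 7.37e-06) in Ubqln1-/- cells. Hsf2 lay at 4.96 to 6.76 RPKM over the 18 libraries, with log2 differences of 0.11 (SE 0.104, adjusted p = 0.369) and 0.14 (SE 0.103, adjusted p = 0.258) in WT cells and 0.080 (SE 0.104, adjusted p = 0.514) and 0.083 (SE 0.105, adjusted p = 0.515) in Ubqln1-/- cells.

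**Figure D3:**
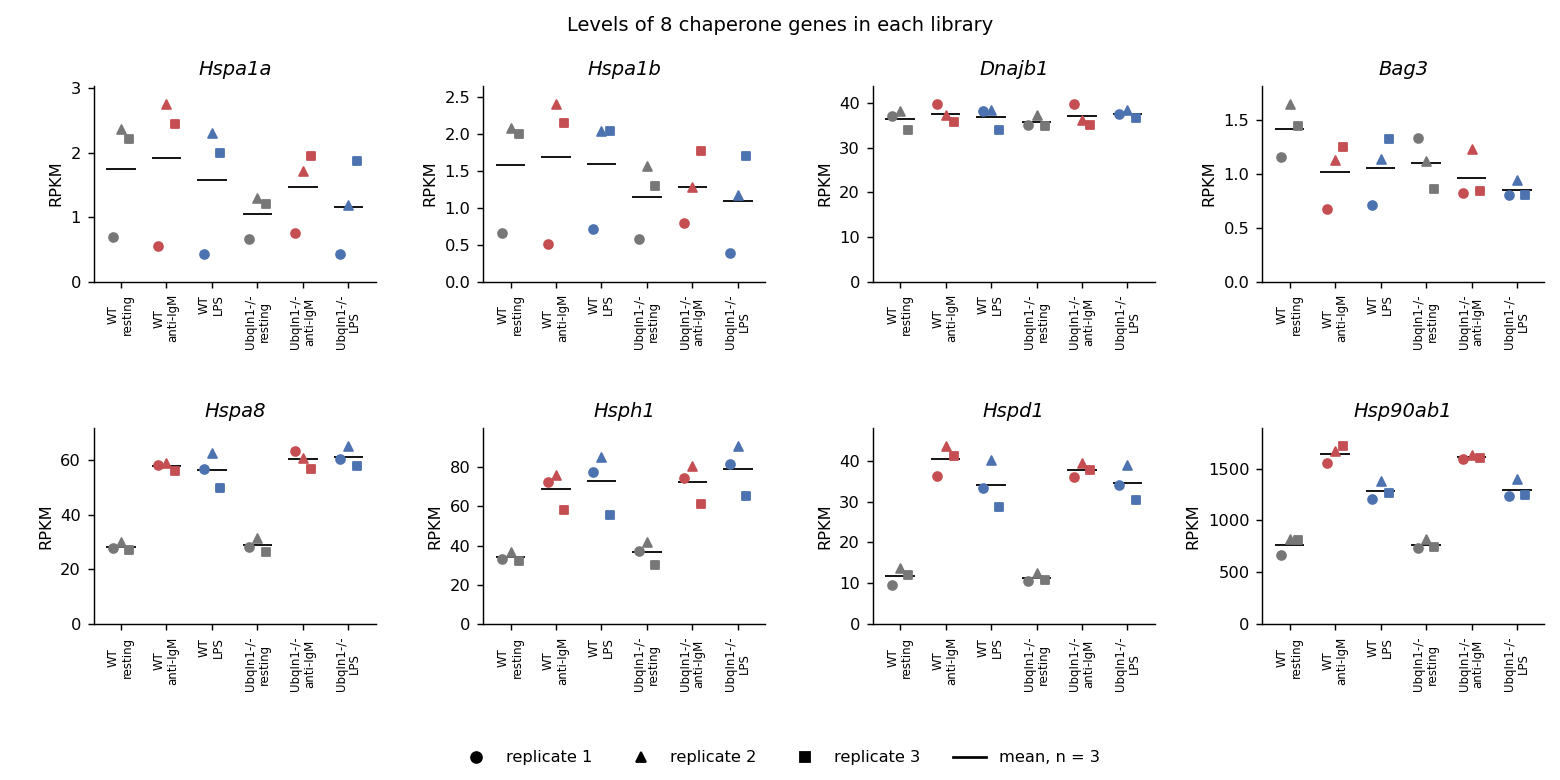
RPKM of 8 genes in each of the 18 libraries, with the replicate number given by the symbol and the mean of 3 by the line, every axis starting at 0. In the upper row Hspa1a, Hspa1b, Dnajb1 and Bag3 overlap between resting and stimulated WT libraries, and replicate 1 is lowest in every group for Hspa1a and Hspa1b. In the lower row Hspa8, Hsph1, Hspd1 and Hsp90ab1 are higher in every stimulated than in every resting library of the same genotype.

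Levels within a group also moved with the replicate number. Of the 43 members, 6 were lowest in replicate 1 of all 6 groups (Hspa1a, Hspa1b, Hspa9, Hsp90ab1, Dnaja2 and Cct2), as were 3.93% of the genes tested. Another 8 were lowest in replicate 3 of all 6 groups (Hspa8, Hsph1, Stip1, Chordc1, Dnajb1, St13, Bag2 and Hsf2), as were 3.33% of the genes tested. For replicate 2 this held for 0 members and 2.43% of genes. The study describes the replicates as independent experiments, and the labels do not say whether a replicate number marks the same experiment in every group.

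Promoter sequence was compared for the 35 members that have at least 1 window, from 250 bases before to 50 after a start, in the RefSeq promoter table (GRCm38.p6), where a gene with several starts has several windows. A heat shock element of 3 alternating units, the site of heat shock factors, was searched as GAA, TTC and GAA or as TTC, GAA and TTC, each unit followed by 2 free bases (NN) before the next, so that both strands are covered. It was found in 7 of 47 member promoters (14.9%) and in 198 of all 32851 promoters (0.603%), and the 5 genes were Hspd1, Hspe1, Hsph1, Chordc1 and Dnajb6. The windows of Hsph1 overlap each other, as do those of Dnajb6 and those of Hspd1 and Hspe1 with the element, so the windows hold 4 separate places on the genome. Counted once per gene, 14.3% of the member genes and 0.662% of all 27025 genes with a window have the element. An E-box, CACGTG on either strand, the site of MYC-type factors, was found in 4 member promoters (8.5%, of Hsf2, Hspd1 and Hsph1) and in 7.15% of all promoters. The overlapping windows of Hsph1 hold the same E-box. Counted once per gene, 8.6% of the member genes and 8.093% of all genes with a window have it, which is nearly the same share. A match describes the letters and is no evidence of binding. Of the 5 genes with the heat shock element, 4 rose under both stimuli and Dnajb6 was not called, where 32 of all 43 members rose. A link between the element and the response was not tested. The windows of Hspa1a and Hspa1b hold neither motif in these letters, and elements with a mismatch in any unit were not searched. The members without a window were Hspa8, Hspa9, Hsp90aa1, Hsp90ab1, St13, Cct4, Pfdn1 and Hsf1.

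The windows printed here are those of the genes with the heat shock element and of Hspa1a and Hspa1b, the heat-inducible genes that were not called, with the heat shock element in capitals and, in Hsph1, the E-box (CACGTG) in capitals as well. Hspd1 and Hspe1 are transcribed head to head from chromosome 1, and the Hspe1 window chr1:55087898-55088197 (plus strand) overlaps the Hspd1 window chr1:55087883-55088182 (minus strand), so the same element lies in both and 1 strand is shown. The others are Hsph1 chr5:149636266-149636565 (minus), Chordc1 chr9:18292017-18292316 (plus), Dnajb6 chr5:29735648-29735947 (plus), Hspa1a chr17:34972107-34972406 (minus) and Hspa1b chr17:34959189-34959488 (minus), all written 5′ to 3′ along the strand of the gene.
Hspe1: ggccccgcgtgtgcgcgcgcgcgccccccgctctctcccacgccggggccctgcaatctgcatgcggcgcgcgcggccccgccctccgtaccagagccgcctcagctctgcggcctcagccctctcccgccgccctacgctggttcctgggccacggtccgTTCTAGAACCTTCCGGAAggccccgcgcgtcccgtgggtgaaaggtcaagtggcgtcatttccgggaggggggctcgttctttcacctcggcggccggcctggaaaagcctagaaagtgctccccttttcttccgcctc
Hsph1: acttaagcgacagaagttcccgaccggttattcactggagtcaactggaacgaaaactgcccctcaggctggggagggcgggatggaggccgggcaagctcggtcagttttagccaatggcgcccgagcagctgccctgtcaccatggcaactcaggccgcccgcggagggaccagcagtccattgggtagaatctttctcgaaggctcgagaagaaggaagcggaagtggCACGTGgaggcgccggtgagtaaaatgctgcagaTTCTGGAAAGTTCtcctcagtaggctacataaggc
Chordc1: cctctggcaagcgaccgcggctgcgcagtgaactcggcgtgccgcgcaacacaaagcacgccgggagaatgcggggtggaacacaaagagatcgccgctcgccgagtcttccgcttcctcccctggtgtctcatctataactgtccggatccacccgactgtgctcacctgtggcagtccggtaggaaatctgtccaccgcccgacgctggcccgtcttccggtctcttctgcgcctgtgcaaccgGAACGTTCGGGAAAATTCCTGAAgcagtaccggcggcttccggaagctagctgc
Dnajb6: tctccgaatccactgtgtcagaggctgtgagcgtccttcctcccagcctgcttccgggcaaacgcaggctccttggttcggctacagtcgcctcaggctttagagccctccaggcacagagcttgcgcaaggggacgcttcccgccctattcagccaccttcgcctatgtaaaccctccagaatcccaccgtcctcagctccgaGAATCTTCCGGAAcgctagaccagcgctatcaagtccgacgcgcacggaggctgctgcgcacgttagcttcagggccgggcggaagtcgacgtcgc
Hspa1a: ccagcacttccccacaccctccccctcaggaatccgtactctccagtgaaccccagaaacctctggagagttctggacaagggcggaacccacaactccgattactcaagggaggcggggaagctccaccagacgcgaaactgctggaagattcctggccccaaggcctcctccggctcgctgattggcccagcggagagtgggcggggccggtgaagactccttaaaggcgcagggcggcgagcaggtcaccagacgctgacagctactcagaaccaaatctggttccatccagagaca
Hspa1b: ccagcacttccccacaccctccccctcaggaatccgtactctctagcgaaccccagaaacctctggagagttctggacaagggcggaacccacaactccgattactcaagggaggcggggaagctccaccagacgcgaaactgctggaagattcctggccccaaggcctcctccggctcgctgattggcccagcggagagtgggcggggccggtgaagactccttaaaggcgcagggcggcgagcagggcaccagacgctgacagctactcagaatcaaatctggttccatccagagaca

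J proteins moved in both directions. In WT cells 2 of 6 rose under both stimuli, Dnaja1 and Dnaja2, the class A partners of HSC70. Dnaja2 went from 65.6, 76.6 and 78.1 RPKM to 113, 126 and 129 RPKM after anti-IgM and 121, 136 and 122 RPKM after LPS, by 0.74 (SE 0.0770, adjusted p = 3.03e-07) and 0.78 (SE 0.0770, adjusted p = 2.87e-07). Dnaja1 went from 7.09 ± 0.182 to 11.3 ± 0.754 and 11.04 ± 1.45 RPKM (SD, n = 3), and 27.1% of its transcript windows are shared with other genes. Dnajc7, which binds HSP70 and HSP90 through TPR repeats, read 141, 130.5 and 124 RPKM at rest, 93.99, 84.2 and 82.4 RPKM after anti-IgM and 122, 104 and 111 RPKM after LPS. No stimulated library reached a resting one, and the log2 fold changes were -0.60 (SE 0.0694, adjusted p = 9.62e-07) and -0.24 (SE 0.0690, adjusted p = 0.00723). The LPS call of Dnajc7 was lost without resting replicate 1 (adjusted p = 0.05) and with only those 2 groups in the fit (adjusted p = 0.0507). Dnajb4 was lower after LPS, at -0.18 (SE 0.0737, adjusted p = 0.0404), a call that was lost when any one of 13 single libraries was left out (adjusted p up to 0.247, without resting replicate 2). It was lost too with no filter on low counts (adjusted p = 0.135) and with only those 2 groups in the fit (adjusted p = 0.126), as was the Dnajb4 call after LPS in Ubqln1-/- cells (adjusted p = 0.1 and 0.0521).

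Of the 4 HSP70 cochaperones, all but Bag3 rose. St13 (HIP, which stabilises the ADP state of HSP70) read 83.05, 97.6 and 82.1 RPKM at rest, 219, 233 and 203 RPKM after anti-IgM and 174, 185 and 137 RPKM after LPS. The log2 fold changes were 1.32 (SE 0.110, adjusted p = 2.62e-08) and 0.92 (SE 0.109, adjusted p = 2.03e-06), with no overlap of stimulated and resting libraries. Bag1, an exchange factor that directs clients to the proteasome, went from 60.6, 72.04 and 69.2 RPKM to 111, 127 and 130.5 RPKM after anti-IgM and 89.9, 96.8 and 86.0 RPKM after LPS, by 0.87 (SE 0.0775, adjusted p = 5.55e-08) and 0.43 (SE 0.0772, adjusted p = 0.000128). Bag2, which restrains the HSP70-bound ubiquitin ligase CHIP, was scarce, with 35 to 269 counts per library. It read 1.23, 1.29 and 1.07 RPKM at rest, 3.10, 3.17 and 3.01 RPKM after anti-IgM and 4.15, 3.77 and 2.60 RPKM after LPS, and its log2 fold changes were 1.37 (SE 0.176, adjusted p = 3.41e-06) and 1.55 (SE 0.173, adjusted p = 1.01e-06).

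All 8 CCT subunit genes rose under both stimuli, with a median log2 fold change of 0.94 after anti-IgM and 0.90 after LPS. Cct3 went from 109.5, 145 and 128 RPKM to 289, 326 and 334 RPKM after anti-IgM, by 1.31 (SE 0.0999, adjusted p = 1.03e-08). Cct6a went from 83.3, 105 and 102 RPKM to 204, 241 and 236 RPKM, by 1.23 (SE 0.104, adjusted p = 3.14e-08). These were the largest changes of the ring after anti-IgM, ahead of Cct8 at 1.12, Cct7 at 0.96, Cct5 at 0.92, Tcp1 at 0.79 and Cct2 at 0.78 on the log2 scale. Cct4 rose least, from 138, 159 and 142 RPKM to 199, 215 and 209 RPKM, by 0.51 (SE 0.0742, adjusted p = 1.46e-05), and after LPS by 0.51 (SE 0.0741, adjusted p = 1.84e-05). In resting libraries the most abundant subunit mRNA was 2.38 ± 0.0724 times the least abundant (SD, n = 3). The coefficient of variation across the 8 subunits was 32.6% ± 0.760 at rest, 28.2% ± 0.364 after anti-IgM and 26.5% ± 0.145 after LPS (SD over 3 WT libraries, with no overlap between the groups). In Ubqln1-/- cells it was 33.8% ± 0.846, 28.2% ± 0.748 and 26.97% ± 1.15, and there the anti-IgM and LPS libraries overlapped.

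Prefoldin, the 6-subunit holder that passes actin and tubulin to CCT, did not move as a unit. Pfdn2 went from 49.8, 55.7 and 53.01 RPKM to 88.1, 88.9 and 91.1 RPKM after anti-IgM, by 0.76 (SE 0.0676, adjusted p = 5.45e-08). Pfdn4 went from 10.1, 11.5 and 11.1 RPKM to 16.05, 17.8 and 18.8 RPKM, by 0.68 (SE 0.120, adjusted p = 9.81e-05), and Pfdn6 rose by 0.45 (SE 0.0716, adjusted p = 3.23e-05). After LPS these 3 genes rose by 0.84, 0.93 and 0.40 on the log2 scale. Pfdn5 read 102, 129 and 113 RPKM at rest, 90.2, 86.2 and 93.4 RPKM after anti-IgM and 98.7, 91.8 and 101 RPKM after LPS. Every stimulated library was below every resting one, with log2 fold changes of -0.35 (SE 0.0702, adjusted p = 0.000292) and -0.24 (SE 0.0696, adjusted p = 0.00643), and the LPS call was lost without resting replicate 2 (adjusted p = 0.0686) and with only those 2 groups in the fit (adjusted p = 0.0677). Pfdn1 and Vbp1 were not called, at 17.6 to 22.5 RPKM for Pfdn1 and 46.4 to 51.01 RPKM for Vbp1 in the 9 WT libraries. The most abundant subunit mRNA was 10.5 ± 0.649 times the least abundant at rest, 5.19 ± 0.376 times after anti-IgM and 5.24 ± 0.447 times after LPS (SD, n = 3). Of the transcript windows, 27.1% for Pfdn2 and 21.6% for Pfdn4 are shared with other genes.

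**Figure D4:**
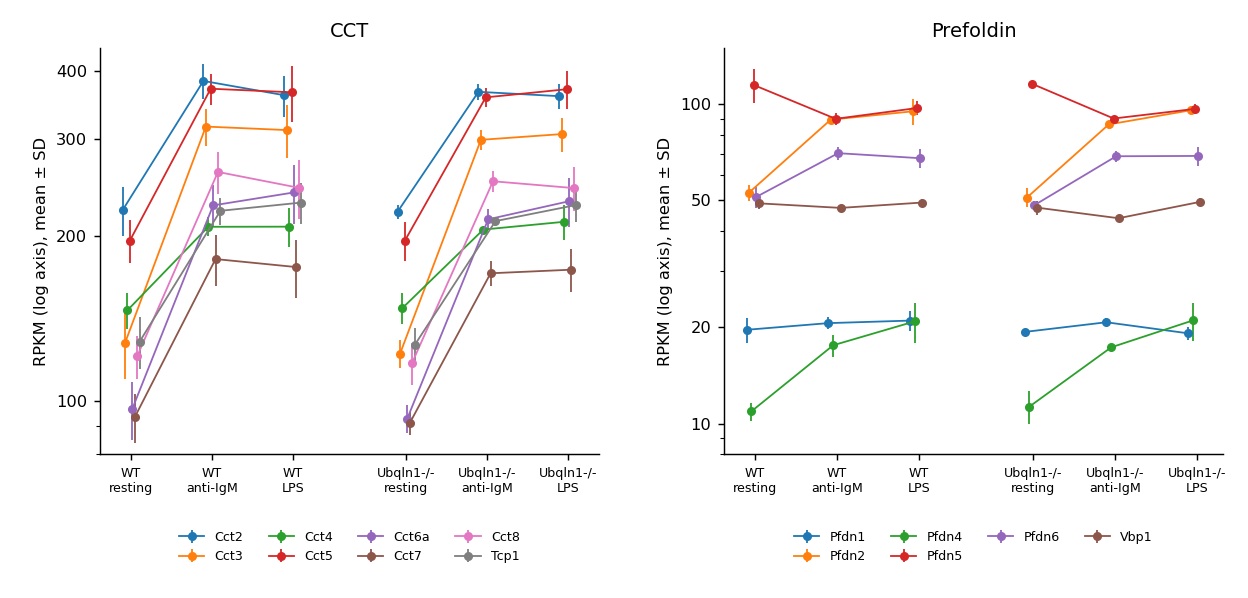
Mean RPKM ± SD (n = 3, log axis) of the 8 CCT genes (left) and the 6 prefoldin genes (right) in the 6 groups, with lines joining the groups of 1 genotype. All CCT means are higher after either stimulus, from 93.5 (Cct7) to 223 RPKM (Cct2) at rest and from 182 to 383 RPKM after anti-IgM in WT cells, while among the prefoldin genes Pfdn5 goes down as Pfdn2 and Pfdn4 go up.

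The Ubqln1-/- comparisons use other libraries than the WT ones, but all 18 libraries were in 1 fit with a shared estimate of the spread. Same-numbered libraries also deviated together across groups, with a mean correlation of 0.266. The comparisons in the 2 genotypes are therefore not independent. After anti-IgM, 32 members rose and 2 fell, against 32.9% and 32.4% of all genes, with a median log2 fold change of 0.75 over the members and -0.017 over all genes. After LPS, 32 rose and 3 fell, against 30.6% and 30.2%, with medians of 0.76 and -0.020. Increases of over 2-fold were called for 10 and 9 members, against 9.6% and 7.82% of all genes. The 32 genes that rose were the same in all 4 stimulation comparisons, Dnajc7 and Pfdn5 fell in all 4, Dnajb4 fell after LPS in both genotypes, and 8 genes were called in none, which were Hspa1a, Hspa1b, Dnajb1, Dnajb6, Bag3, Pfdn1, Vbp1 and Hsf2. Hspd1 read 10.6, 12.6 and 10.7 RPKM in resting, 35.95, 39.4 and 37.8 RPKM in anti-IgM and 33.9, 38.8 and 30.5 RPKM in LPS libraries of Ubqln1-/- cells. Hsp90ab1 read 734, 818 and 743 RPKM, 1595, 1632 and 1601 RPKM and 1240, 1395 and 1246 RPKM, and Dnajc7 139, 139 and 133 RPKM, 90.5, 85.9 and 87.2 RPKM and 123, 112 and 114 RPKM in the same order. In these 3 genes stimulated and resting libraries did not overlap. Among the 32 genes that rose, Chordc1 after anti-IgM was the 1 case in which they did overlap, with 37.7, 40.1 and 32.5 RPKM at rest and 48.9, 49.99 and 39.6 RPKM after anti-IgM. That call of Chordc1 was lost without resting replicate 3 (adjusted p = 0.141), anti-IgM replicate 1 (adjusted p = 0.09), anti-IgM replicate 2 (adjusted p = 0.108) or the replicate 1 libraries (adjusted p = 0.177). With the replicate number as a block, Vbp1 was also lower after anti-IgM in Ubqln1-/- cells (-0.11, SE 0.0422, adjusted p = 0.0269, against an adjusted p of 0.0571 without the block).

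The stimuli differed in few members. Comparing LPS with anti-IgM directly in WT cells, 5 members were lower and 1 higher after LPS, against 15% and 17.4% of all genes tested. In Ubqln1-/- cells 4 were lower and 2 higher, against 14.5% and 16.8%. Lower after LPS in both genotypes were Hspa14, Hsp90ab1, St13 and Bag1, and Dnajc7 was higher in both. For each of these 5 genes the LPS and anti-IgM libraries did not overlap in either genotype. In WT cells the log2 difference of Hspa14 was -0.36 (SE 0.0524, adjusted p = 4.51e-05), that of Hsp90ab1 -0.36 (SE 0.0813, adjusted p = 0.00236) and that of Bag1 -0.43 (SE 0.0764, adjusted p = 0.000288). St13 differed by -0.40 (SE 0.108, adjusted p = 0.0082), a call that was lost without the replicate 1 libraries (adjusted p = 0.0561), and Dnajc7 by 0.37 (SE 0.0692, adjusted p = 0.000515). St13 differed in Ubqln1-/- cells by -0.37 (SE 0.108, adjusted p = 0.0143), and that call was lost without anti-IgM replicate 2 (adjusted p = 0.0551), LPS replicate 1 (adjusted p = 0.0505), LPS replicate 3 (adjusted p = 0.0756) or the replicate 1 libraries (adjusted p = 0.106). Dnajb4 was lower after LPS in WT cells, at -0.21 (SE 0.0731, adjusted p = 0.0329), and Vbp1 higher in Ubqln1-/- cells, at 0.17 (SE 0.0490, adjusted p = 0.0132). The Dnajb4 call was lost without any one of 4 libraries of these groups and that of Vbp1 without anti-IgM replicate 3 or LPS replicate 1, and both were lost without the replicate 1 libraries (adjusted p = 0.183 and 0.182). With no filter on low counts both calls were lost (adjusted p = 0.105 and 0.0643), and with only the 2 groups in the fit that of Dnajb4 (adjusted p = 0.0599). The count of members lower in WT cells was 8 without LPS replicate 2, and that of members higher was 2 in WT and 4 in Ubqln1-/- cells without LPS replicate 3 of that genotype. The ratio of Hsp90ab1 to Hsp90aa1 RPKM was 141 ± 2.34 at rest, 128 ± 9.84 after anti-IgM and 96.6 ± 4.81 after LPS in WT cells (SD, n = 3), and the 3 LPS libraries were below the other 6. Since 50.1% of Hsp90aa1 and 4.1% of Hsp90ab1 transcript windows are shared with other genes, this ratio is uncertain.

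With the replicate number as a block, which absorbs shifts shared by libraries of 1 number, the counts were 9 lower and 3 higher in WT cells, against 20.4% and 22.4% of all genes, and 7 lower and 7 higher in Ubqln1-/- cells, against 19.6% and 22.2%. The members added in both genotypes were Hspa9 (-0.32, SE 0.0698, adjusted p = 0.00103 in WT cells), Hspe1 (-0.26, SE 0.0768, adjusted p = 0.00968) and Fkbp4 (-0.25, SE 0.0647, adjusted p = 0.00504) as lower after LPS, and Chordc1 (0.20, SE 0.0431, adjusted p = 0.000856) and Pfdn4 (0.25, SE 0.0881, adjusted p = 0.0299) as higher. Hspd1 was added as lower in WT cells, and Hsp90aa1, Stip1 and Pfdn2 as higher in Ubqln1-/- cells.

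No member was called between genotypes in resting, anti-IgM or LPS cells by edgeR, limma-voom or DESeq2, where edgeR called 0.0565%, 0.0989% and 0.0424% of all genes tested. At an unadjusted p under 0.05, 0 members passed at rest, 1 after anti-IgM and 0 after LPS by each of the 3 tools, against 4.22%, 5.14% and 3.93% of all genes in edgeR. The gene was Vbp1, with 44.2, 44.7 and 42.9 RPKM in Ubqln1-/- and 48.1, 47.5 and 46.4 RPKM in WT libraries after anti-IgM, a log2 difference of -0.11, 95% interval -0.21 to -0.0042 (adjusted p = 0.951). With the replicate number as a block no member was called either, where 0.346%, 0.664% and 0.883% of all genes were. At an unadjusted p under 0.05 the block gave 2 members lower at rest (Hspa1a and Hspa1b), 1 lower after anti-IgM (Vbp1) and, after LPS, 3 higher (Hspa8, Hsph1 and Chordc1) and 1 lower (Hspa1b), against 8.47%, 11.2% and 8.35% of all genes. The summed level of the members was 3348 ± 179 RPKM in Ubqln1-/- and 3379 ± 297 RPKM in WT cells at rest, 6063 ± 139.9 and 6255 ± 324 RPKM after anti-IgM, and 5721 ± 401 and 5700 ± 503 RPKM after LPS (SD, n = 3).

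For the members with the smallest p, the log2 differences of Ubqln1-/- against WT at rest were those of Bag3 (-0.37, 95% interval -0.92 to 0.18), Dnajb4 (0.096, 95% interval -0.061 to 0.25) and Pfdn6 (-0.089, 95% interval -0.24 to 0.064). After anti-IgM, Vbp1 was followed by Ptges3 (-0.12, 95% interval -0.30 to 0.061) and Dnaja2 (-0.098, 95% interval -0.26 to 0.064). After LPS they were Pfdn1 (-0.13, 95% interval -0.29 to 0.028), Hspa8 (0.12, 95% interval -0.052 to 0.29) and Bag3 (-0.30, 95% interval -0.87 to 0.26). The 95% interval lay wholly within 0.5 log2 units of 0 for 39 members at rest, 40 after anti-IgM and 40 after LPS. Hspa1a had a wide interval at rest (-0.77, 95% interval -2.16 to 0.63), with 0.660, 1.30 and 1.20 RPKM in Ubqln1-/- against 0.685, 2.37 and 2.21 RPKM in WT libraries. Without the replicate 1 libraries the log2 differences of Hspa1a were -0.88 (SE 0.207, adjusted p = 0.411) at rest, -0.52 (SE 0.196, adjusted p = 0.706) after anti-IgM and -0.53 (SE 0.200, adjusted p = 0.893) after LPS, a gene and a subset chosen after their values were seen.

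**Figure D5:**
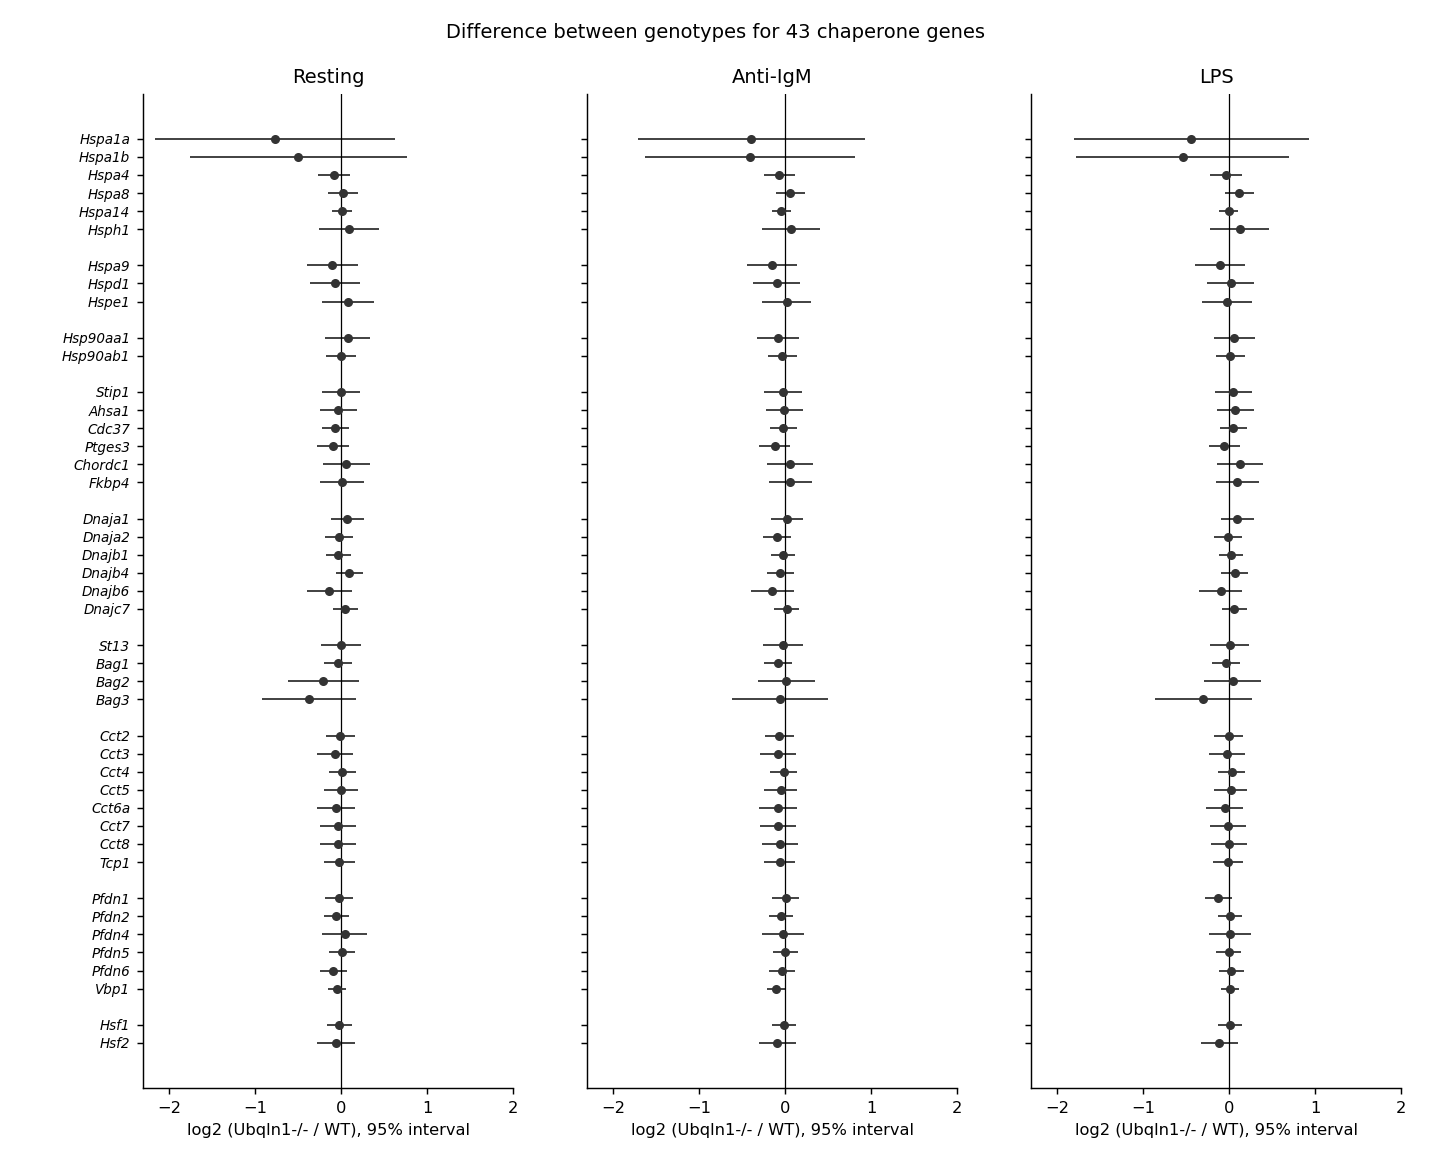
Log2 difference between Ubqln1-/- and WT cells for the 43 genes in each condition, as estimates with 95% intervals (edgeR, 3 libraries per group). All intervals include 0 except that of Vbp1 after anti-IgM (-0.21 to -0.0042), and those of Hspa1a and Hspa1b are the widest.

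Whether the response itself differed between genotypes was tested as an interaction. Of all genes tested, 0% were called for anti-IgM and 0% for LPS, and 0 members passed an unadjusted p under 0.05 by edgeR, limma-voom or DESeq2, where 0.989% and 1.55% of all genes did in edgeR. The members with the smallest p for anti-IgM, as the Ubqln1-/- minus the WT log2 response, were Dnajb4 (-0.15, 95% interval -0.37 to 0.070), Hsp90aa1 (-0.16, 95% interval -0.52 to 0.20) and Vbp1 (-0.063, 95% interval -0.21 to 0.084). For LPS they were Pfdn6 (0.11, 95% interval -0.10 to 0.33), Cdc37 (0.11, 95% interval -0.11 to 0.33) and Pfdn1 (-0.10, 95% interval -0.33 to 0.12).

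A second list, of 70 other cytosolic and mitochondrial chaperones and cofactors, moved less uniformly than the members. Of the 66 that passed the filter, 37 rose and 8 fell in WT cells after anti-IgM, against 32.4% and 32.2% of all genes. After LPS 33 rose and 10 fell, against 31.2% and 30.1%. The median log2 fold changes over the list were 0.33 and 0.17. In Ubqln1-/- cells 36 rose and 9 fell after anti-IgM, against 32.9% and 32.4% of all genes. There 35 rose and 9 fell after LPS, against 30.6% and 30.2%. The largest increases after anti-IgM in WT cells were those of Ruvbl1 (an ATPase of the R2TP complex, an HSP90 cofactor), with means of 3.82 and 9.66 RPKM, Ppid (cyclophilin 40, an HSP90 cochaperone), with 10.5 and 26.1 RPKM, and Dnajc27, with 7.08 and 16.6 RPKM. After LPS, Ppid (25.5 RPKM), Dnajc27 (16.2 RPKM) and Nudcd2 (25.9 RPKM) led. The largest decreases were those of Dnajc9, a J protein that also binds histones, from 64.6 to 36.2 RPKM after anti-IgM, Hspb6, a small heat shock gene, from 3.82 to 2.18 RPKM, and Hspb11. After LPS they were those of Hspa4l, Hspb6 and Dnajc9. In Ubqln1-/- cells Ruvbl2 joined Ruvbl1 and Ppid after anti-IgM, and the genes that fell most were the same as in WT cells.

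Hspa4l, an HSP110 relative of Hspa4 and Hsph1, differed most between the stimuli among these genes. It read 8.34, 5.92 and 5.74 RPKM at rest, 16.1, 13.4 and 10.1 RPKM after anti-IgM and 3.63, 2.69 and 2.78 RPKM after LPS in WT cells, a log2 difference of -2.12 (SE 0.182, adjusted p = 9.7e-08) between LPS and anti-IgM. In Ubqln1-/- cells the means were 7.04, 12.9 and 3.08 RPKM. Hspa4 itself stood at 128 ± 8.74 RPKM after anti-IgM and 123 ± 13.6 RPKM after LPS (SD, n = 3). Of the 66 genes tested, 14 were lower and 2 higher after LPS than after anti-IgM in WT cells, against 15% and 17.4% of all genes. In Ubqln1-/- cells 13 were lower and 5 higher, against 14.5% and 16.8%. The J protein Dnajb2 and the immunophilin Fkbp5 were among those lower in both genotypes, and Grpel2 and Sugt1 were higher in both. No gene of this list was called between genotypes without the replicate block. With it, 1 gene was called, Clpb, which encodes a disaggregase of mitochondria and was chosen after its values were seen. Clpb read 4.03, 5.26 and 5.30 RPKM in WT and 5.57, 6.20 and 6.32 RPKM in Ubqln1-/- libraries at rest, 7.48, 8.06 and 7.94 against 9.06, 10.1 and 9.94 RPKM after anti-IgM and 6.56, 7.96 and 7.24 against 8.14, 8.92 and 8.42 RPKM after LPS. The genotypes did not overlap at rest, after anti-IgM or after LPS. At rest and after anti-IgM the log2 differences with the block were 0.31 (SE 0.0639, adjusted p = 0.0492) and 0.31 (SE 0.0582, adjusted p = 0.0205), against adjusted p-values of 0.783 and 0.481 without it. After LPS the log2 difference with the block was 0.23 (SE 0.0589, adjusted p = 0.0977).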

How the data were processed

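RNASeq of 18 libraries of mouse splenic B cells was used, 3 for each of 2 genotypes and 3 treatments. Single-end reads were mapped by the authors with GSNAP on the GRCm38 genome and counted over the exons of each gene, and the deposited files hold these counts beside RPKM values computed by the authors. The deposited counts were tested, and the deposited RPKM served only as an alternative. The library kit does not mark strand, so reads of overlapping antisense genes cannot be told apart. The counting program, the annotation release and the handling of reads with several matches are not given in the sources used here. The authors' own tests were made in R 3.2.2 with limma.

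Counts were tested with edgeR 4.0.16 in R 4.3.3 by the quasi-likelihood test over all 18 libraries, with 1 term per group, TMM scaling (factors 0.958 to 1.04), filterByExpr and Benjamini-Hochberg adjustment over 14161 genes, all adjusted p-values being two-sided. RPKM was recomputed here as counts per kilobase of the deposited gene width, with TMM-scaled library sizes. The biological coefficient of variation was 10.1%. Fits were tested on simulated counts in which some genes were changed in the WT anti-IgM libraries only. The simulated libraries shared no shift by replicate number, so the simulation does not cover such shifts. Alternatives were limma-voom (limma 3.58.1), DESeq2 1.42.0, RLE scaling, no filter beyond a total of 1 count, a minimum of 10 counts in every library, only the groups compared, the replicate number as a block, each library left out in turn, Hspa1a and Hspa1b summed, and, added after seeing the data, all replicate 1 libraries left out. Tables and figures were made with Python 3.11.15, pandas 2.3.3 and matplotlib 3.10.9. The replicate numbered 1 carries no number in the labels. Deviations from the group means correlated between same-numbered libraries at 0.266 on average, and above 0.1 in 43 of 45 pairs. The mean for different numbers was -0.132. Deviations within a group cancel out, so this negative value follows from the positive one and adds no separate evidence.

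The members and gene lists were chosen with earlier results of these data known. Fold changes with errors are given for members with an adjusted p under 0.05, for Hspa1a, Hspa1b, Hsf1 and Hsf2 in every stimulation comparison, and between genotypes for the 3 members with the smallest p. Of the other chaperones, the 3 largest increases and decreases per comparison with at least 1 RPKM in the higher group are named. Promoter windows came from RefSeq (GRCm38.p6), and shared 50-base transcript windows from GENCODE transcripts. The summed level of the B cell markers is not reported here.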

Additional observations from a re-analysis of the deposited data

How the results depend on the processing

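The fold changes of the named members kept their direction and their side of the threshold in 1281 checks against other tools, scalings, filters, sample sets and the block, reversed in 11 and lost a call in 9. Every reversal was in a difference that was not called in the main result. With limma-voom Hspa1a and Hspa1b were at -0.12 and -0.15 after anti-IgM in WT cells, and Hspa1b at 0.096 for LPS against anti-IgM. Hspa1b after LPS in WT cells was at 0.0005 with DESeq2 and 0.016 with the replicate block. Hsf2 for LPS against anti-IgM in Ubqln1-/- cells was at -0.0027 with limma-voom, -0.0065 with DESeq2, -0.0037 with RLE scaling, -0.0029 with no filter beyond a total of 1 count, -0.0060 with at least 10 counts in every library and -0.011 with only the groups compared. Fitting only the groups compared left 0 members lower after LPS in WT cells (fewer samples in the fit), and no filter left 1 member higher for LPS against anti-IgM in Ubqln1-/- cells. The replicate block gave 3 higher and 9 lower for LPS against anti-IgM in WT cells and 7 and 7 in Ubqln1-/- cells, added Vbp1 after anti-IgM in Ubqln1-/- cells, changed no other count of members called, and added Clpb, of the other chaperones, as higher in Ubqln1-/- cells at rest and after anti-IgM. The median over members in place of the sum gave 0.75 for anti-IgM in Ubqln1-/- cells, against 0.86 for the sum. Group mean levels moved by more than 1 SD in 221 and by less in 295 checks against other library sizes. The deposited RPKM, an alternative here, imply library totals of which the gene counts were 83.76% to 88.35%. The part that this plays in the shifts was not tested.

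Leaving out 1 library at a time, or the replicate 1 libraries, kept the members that rose at 31 to 32 in each stimulation comparison, with 10 to 16 over 2-fold after anti-IgM and 6 to 13 after LPS in WT cells, and 10 to 13 and 8 to 13 in Ubqln1-/- cells. Members that fell numbered 1 to 3 after LPS in WT and 2 to 3 in Ubqln1-/- cells, and 2 after anti-IgM in both. For LPS against anti-IgM the counts were 1 to 2 higher and 4 to 8 lower in WT cells and 1 to 4 and 3 to 4 in Ubqln1-/- cells, and 0 between genotypes and for the interactions. Calls lost were those of Chordc1 after anti-IgM, Dnajb4, Dnajc7 (WT) and Pfdn5 (WT) after LPS, Hspa14 after LPS, and Dnajb4, St13 and Vbp1 between the stimuli. In uncalled differences the sign changed. Hspa1a ranged over -0.28 to 0.54 (WT anti-IgM), -0.58 to 0.26 (WT LPS), -0.32 to 0.52 (Ubqln1-/- LPS), -0.72 to 0.17 (WT LPS against anti-IgM) and -0.79 to 0.046 (the same in Ubqln1-/-). Hspa1b ranged over -0.31 to 0.50 (WT anti-IgM), -0.36 to 0.33 (WT LPS), -0.17 to 0.44 (Ubqln1-/- anti-IgM), -0.48 to 0.32 (Ubqln1-/- LPS), -0.51 to 0.30 and -0.62 to 0.17 (LPS against anti-IgM). Hsf2 ranged over -0.0057 to 0.18 (Ubqln1-/- anti-IgM), -0.047 to 0.11 and -0.089 to 0.099 (LPS against anti-IgM), and the LPS interaction of Pfdn1 over -0.15 to 0.045. Hspa1a, Hspa1b, Bag2 and Bag3 had the fewest counts, 18 to 269 per library. The SE of Hspa1a after anti-IgM in WT cells was 0.624, and 0.217 with the replicate block, while that of Bag2 was 0.176.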
